A study of Mus musculus with 2 samples.

Results

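The genes described here encode the receptor for the cytokine interleukin-2 (IL-2), the kinase and the transcription factors that carry its signal, and the inhibitors that feed back on it. They are the 10 genes Il2ra, Il2rb, Il2rg, Jak3, Stat5a, Stat5b, Cish, Socs1, Socs2 and Socs3, chosen by symbol from the 31253 genes of the count matrices, and all 10 symbols were found. Their RNA was counted in single mouse thymocytes, the developing T cells of the thymus, that had been enriched with beads against CD25. Droplet sequencing of 3′ ends with unique molecular identifiers (UMIs) gave 1 library from wild-type mice (WT) and 1 from mice labelled SETDBf/fCD4-Cre (cKO). The sources used here give no age, strain or number of mice for either library.

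In the cKO mice a SETDB gene flanked by loxP sites is deleted by a Cre recombinase under Cd4 control, which becomes active around the stage at which thymocytes switch on Cd4 and Cd8. The label does not say which SETDB gene is floxed. Setdb1 (ENSMUSG00000015697) was found at 33.6 (WT) and 32.1 (cKO) UMIs per 1000000 (CPM) in double-negative cells, 32.2 and 28.8 in double-positive cells, 37.7 and 26.4 in agonist cells, 20.7 and 25.1 in Foxp3-positive cells and 36.4 and 27.4 in mature cells, as these gates are defined below. Setdb2 lay between 4.64 and 9.07 CPM over these gates and libraries, with 4.64 and 7.57 CPM in agonist cells as its widest ratio (1.63, 0.924 to 2.94). A 3′ tag outside the deleted exons does not check the deletion. With 1 library per genotype there was no replicate and no test between genotypes. The intervals below cover counting error only, not differences between mice, bead enrichments or captures.

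IL-2 binds a receptor made of the alpha chain CD25 (Il2ra), the beta chain CD122 (Il2rb) and the common gamma chain (Il2rg). The alpha chain raises the affinity for IL-2, and the beta and gamma chains carry the signal. JAK3 binds the gamma chain, JAK1 the beta chain, and together they phosphorylate STAT5A and STAT5B, which enter the nucleus and bind DNA at the palindrome TTCNNNGAA. CIS (Cish), SOCS1, SOCS2 and SOCS3 belong to 1 family of proteins that are induced by cytokines and dampen JAK and STAT signalling. In the thymus, CD25 marks early double-negative cells, where the beta chain is not needed for development, and returns on regulatory T cell precursors and on Foxp3-positive regulatory T cells, which depend on IL-2 and STAT5.

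The promoters of the feedback genes are shown because this palindrome is the site STAT5 is known to bind. RefSeq promoter windows on GRCm38.p6, of 300 bases from 250 bases before to 50 bases after an annotated start, were matched by symbol for 8 of the 10 genes, in 10 windows. Il2rb and Socs2 were not matched. TTCNNNGAA, which reads the same on both strands, was searched as the only motif. It was present in the windows of 2 genes, Cish with 2 matches and Socs3 with 1. The windows of Il2ra, Il2rg, Jak3, Stat5a, Stat5b and Socs1 held none of these letters. Of all 32851 promoter windows, 2726 (8.3%) held at least 1 match and 150 (0.457%) held at least 2. The sequences below are parts of the windows of Cish and Socs3, cut to 270 and 250 bases. They run 5′ to 3′ on the gene's strand from 250 bases before the start, and capitals mark the matches. The Cish stretch lies on the plus strand at chr9:107296409-107296678 and ends at base 20 of the transcribed part. The Socs3 stretch lies on the minus strand at chr11:117969367-117969616 and ends before the start.
Cish: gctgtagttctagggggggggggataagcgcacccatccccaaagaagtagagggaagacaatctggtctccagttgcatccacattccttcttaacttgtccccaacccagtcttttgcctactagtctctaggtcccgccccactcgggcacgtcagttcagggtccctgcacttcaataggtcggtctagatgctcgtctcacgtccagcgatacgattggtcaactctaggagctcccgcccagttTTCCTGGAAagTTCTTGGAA
Socs3: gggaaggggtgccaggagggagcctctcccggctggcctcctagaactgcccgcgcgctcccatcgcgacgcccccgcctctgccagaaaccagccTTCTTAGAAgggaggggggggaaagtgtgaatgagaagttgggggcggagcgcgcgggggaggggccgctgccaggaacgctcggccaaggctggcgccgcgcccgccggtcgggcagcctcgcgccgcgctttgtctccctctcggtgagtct
Counted from the annotated start as base 1, the Cish matches TTCCTGGAA and TTCTTGGAA span bases 1 to 9 and 12 to 20, at the start of the transcribed part. The Socs3 match TTCTTAGAA spans bases -154 to -146. In GENCODE vM21 the Cish gene opens farther upstream, at base 107296026, so both Cish matches lie inside that gene model. No binding was measured, and a match is a description of letters only.

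After filtering, 6989 WT and 7372 cKO cells remained, with medians of 7700 and 4653 UMIs per cell. Cells were placed by RNA markers into 5 gates. Double-negative (DN) cells held no Cd4, Cd8a or Cd8b1 UMI, and double-positive (DP) cells held Cd4, a Cd8 gene and a recombination-stage gene. Agonist cells held Trac and at least 3 genes of strong receptor stimulation without Foxp3, Foxp3-positive cells held at least 1 Foxp3 UMI, and mature cells held Trac and egress or homing genes. The gates held 2736 and 2037 DN, 1742 and 2525 DP, 299 and 326 agonist, 331 and 328 Foxp3-positive and 98 and 96 mature cells in WT and cKO. UMIs were summed per gate, and CPM is taken of that sum. The depth of the sums ran from 39332097 UMIs (WT, DN) to 1096347 (cKO, mature), so values of the mature gate are the least precise. Orders of levels below are among these 5 gates. The libraries shared 16 barcodes. A list of gamma-delta T cell markers, of which 3 of 6 symbols were in the files, summed to 365 and 317 CPM in the mature gate and to 59.5 to 332 CPM in the others, and the part of such cells in the mature-gate values was not tested. Dntt, highest in DP cells (1382 and 1287 CPM), stood at 325 and 422 CPM in mature and 407 and 369 CPM in agonist cells. Foxp3-positive cells held 129.5 and 163 CPM of it. Agonist cells also held Ptcra (38.8 and 33.3 CPM) and Rag1 (42.6 and 48.4 CPM). Mki67 was highest in the mature gate (232 and 223 CPM). The gate names stand for these marker rules, and the part of less mature cells in them was not tested.

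Il2ra (ENSMUSG00000026770), the CD25 gene, was, among these 5 gates, highest in DN cells and next highest in Foxp3-positive cells in both libraries. Cells gated out by innate and effector genes, 229 in WT and 240 in cKO, are not ranked here and held 357 and 286.5 CPM. DN cells held 358.5 CPM in WT (353 to 364.5, exact 95% Poisson interval) and 359.6 CPM in cKO (353 to 366.5). Foxp3-positive cells held 249 CPM in WT (231 to 269) and 311 CPM in cKO (289 to 334). The DP, agonist and mature gates were lower, at 64.7, 82.4 and 92.7 CPM in WT and at 80.9, 88.1 and 87.6 CPM in cKO. The agonist and mature intervals overlapped in both libraries, and in cKO the DP interval overlapped them too. Because beads against CD25 selected the cells, these levels describe the enriched suspension and not the whole thymus. Between libraries, Il2ra was at nearly the same level in DN cells (ratio of cKO to WT 1.003, 0.978 to 1.03) and higher in the cKO library in Foxp3-positive cells (1.25, 1.12 to 1.39), under 1.5-fold. The Foxp3-positive log2 fold of 0.31 ran from 0.07 to 0.33 over 12 alternatives. The shares of Foxp3-positive cells with a UMI, given below, were close in the 2 libraries. In DP cells the ratio was 1.25, but the log2 fold ran from -0.12 to 0.32 over the alternatives, so no difference was read from it. Within the Foxp3-positive gate the ratio was 1.53 (1.15 to 2.04) in dividing cells, 37 in WT and 21 in cKO, and 1.13 (1.004 to 1.26) in the other cells. The difference between those ratios was not tested.

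**Figure D1:**
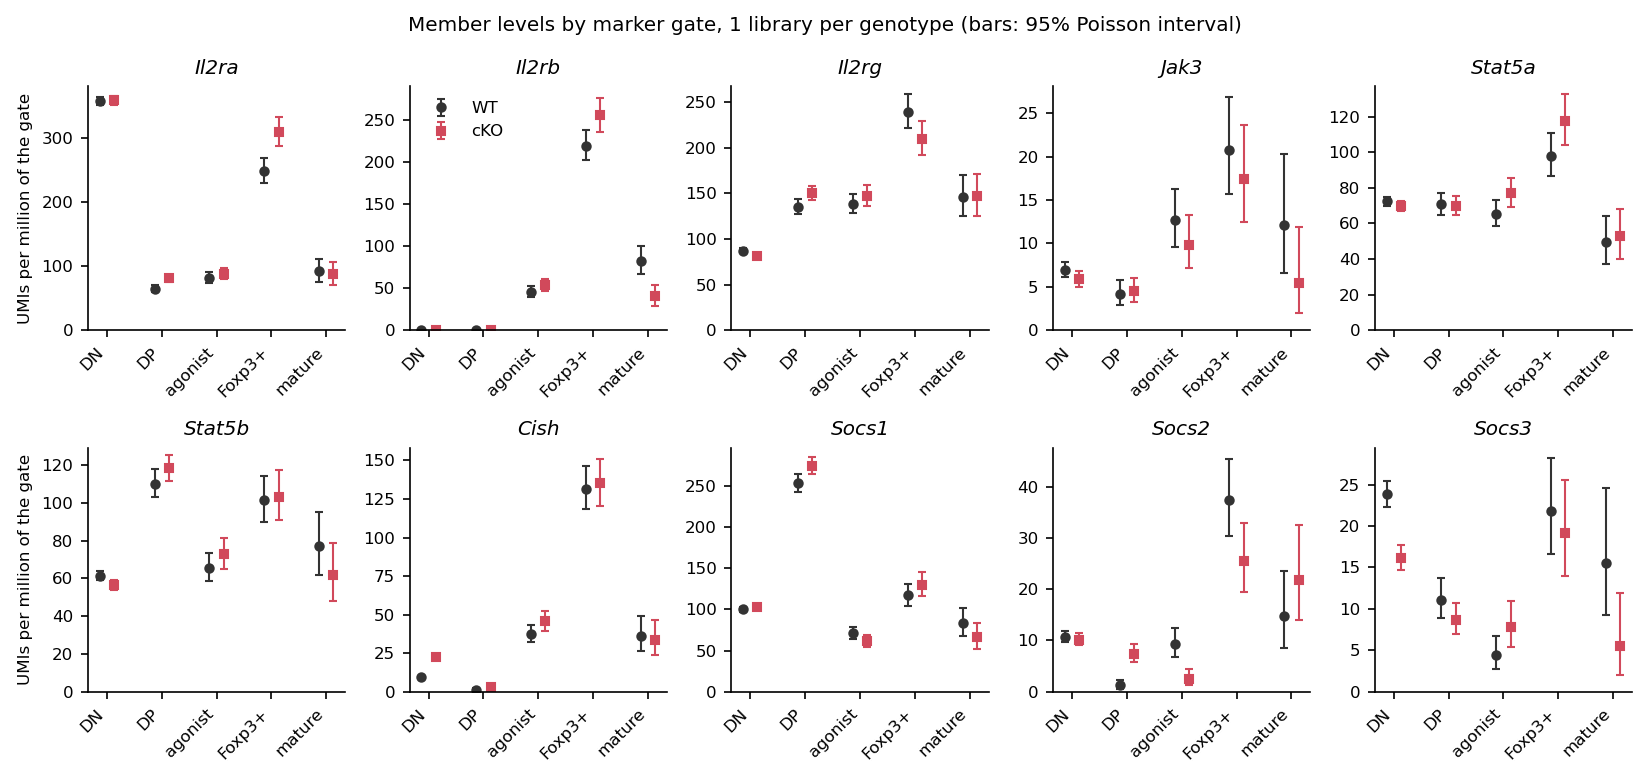
Level of each of the 10 genes (y axes, CPM of the gate's summed UMIs) in the 5 marker gates, with WT as circles, cKO as squares and exact 95% Poisson intervals as bars. Il2rb is near 0 in DN and DP cells and highest in Foxp3-positive cells (219 and 255.5 CPM), and Socs1 is highest in DP cells.

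Il2rb (ENSMUSG00000068227), the signalling beta chain, was nearly absent before selection. DN cells held 14 UMIs in WT and 13 in cKO (0.356 and 0.439 CPM). DP cells held 0 in WT (exact 95% upper limit 0.465 CPM) and 5 in cKO. Agonist cells stood at 45.9 and 53.9 CPM and Foxp3-positive cells at 219 (202 to 238) and 255.5 (235.5 to 277) CPM. Against DP cells, Foxp3-positive cells were 579.8-fold higher in WT when the DP gate was set at a floor of 3 counts. The exact 95% lower limit of that WT ratio was 470.1. In cKO they were 502-fold higher (214 to 1550). Foxp3-positive cells stood highest in both libraries, with no overlap with the other 4 gates. In WT the order below them was mature, agonist, and then DN and DP. In cKO the agonist and mature intervals overlapped.

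In the mature gate Il2rb was lower in the cKO library, at 82.3 CPM from 95 UMIs in 41 of 98 WT cells and 40.1 CPM from 44 UMIs in 26 of 96 cKO cells (ratio 0.488, 0.333 to 0.704). The mature gate mixes lineages and cycling cells, with dividing cells giving 61.2% of its UMIs in WT and 65.8% in cKO. In its cells that were not dividing, Il2rb stood at 183 and 104 CPM (0.567, 0.377 to 0.840). Cells of the mature gate with Cd4 and no Cd8, 28 in WT and 29 in cKO, held 232 and 97.6 CPM (0.421, 0.224 to 0.757), while those with Cd8 and no Cd4, 25 and 15 cells, held 23.6 and 39.9 CPM from 13 and 9 UMIs, a ratio on the other side of 1 (1.69, 0.637 to 4.27). After each cell was thinned to 2000 UMIs the fold of the mature gate was -0.34 on the log2 scale and under the 1.5-fold bound. Outside the 5 gates, cells gated out by innate and effector genes went the other way. They held 12.1 CPM of Il2rb in WT (58 UMIs) and 49.7 CPM in cKO (276 UMIs), a ratio of 4.11 (3.09 to 5.56).

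Il2rg (ENSMUSG00000031304), the gamma chain shared with the receptors for IL-4, IL-7, IL-9, IL-15 and IL-21, was present in every gate. It ran from 87.3 CPM in DN cells to 239 CPM in Foxp3-positive cells in WT, and from 81.1 to 210 CPM in cKO, with DP, agonist and mature cells between, at 135 to 150.5 CPM and with intervals that overlapped in each library. Its ratio between libraries lay between 0.875 (Foxp3-positive) and 1.11 (DP). In GENCODE vM21 the gene model Gm20489 overlaps Il2rg on the same strand, and reads there may not be assigned to either gene.

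**Figure D2:**
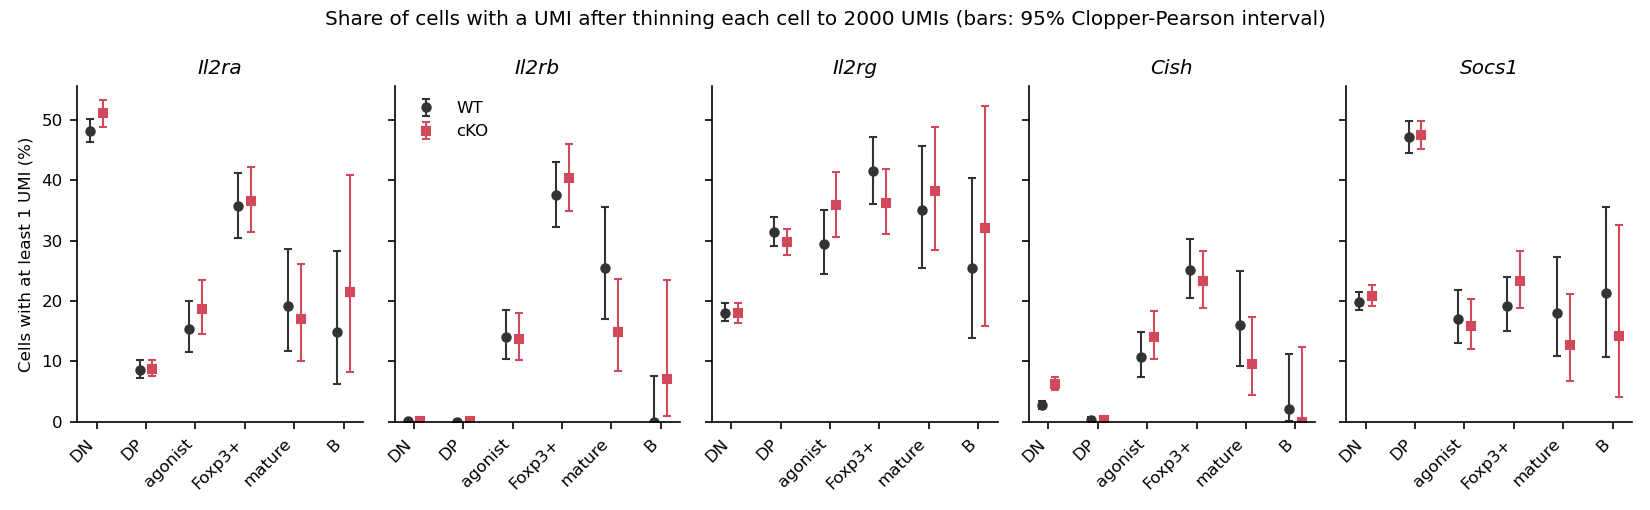
Share of cells with at least 1 UMI (y axis, percent) for Il2ra, Il2rb, Il2rg, Cish and Socs1 in the 5 gates and in cells with B cell markers, after each cell was thinned to 2000 UMIs. Circles are WT, squares cKO and bars 95% Clopper-Pearson intervals. Il2rb is at or near 0% in DN and DP cells and at 37.6% and 40.4% in Foxp3-positive cells.

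Counted by cells at an equal depth of 2000 UMIs, 48.2% of WT and 51.1% of cKO DN cells held an Il2ra UMI, as did 35.7% and 36.6% of Foxp3-positive cells, 15.4% and 18.8% of agonist cells and 8.66% and 8.79% of DP cells. Without thinning the DN shares were 86.7% and 87.5% and the Foxp3-positive shares 60.7% and 60.4%. Among cells with B cell markers 7 of 47 WT (14.9%) and 6 of 28 cKO cells (21.4%) held an Il2ra UMI, with median depths of 5956 and 9186 UMIs against 2749 and 2640 in the DP gate. The DP share was below that level in both libraries, and the agonist share was close to it in WT and below it in cKO. These cells with B cell markers are too few to set a background, since 7 of 47 allows 6.20 to 28.3%. They came from the same suspension enriched for CD25 and held 149 and 189.5 CPM of Il2ra. Whether the DP and agonist shares lie above background was not tested. Il2rb was found in 37.6% and 40.4% of Foxp3-positive cells and in 2 of 2729 WT and 1 of 2037 cKO DN cells, and in 0 of 47 and 2 of 28 cells with B cell markers.

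Among the 5 gates, Il2ra and Il2rb UMIs were found in the same cell most often in Foxp3-positive cells. At 2000 UMIs per cell, 48 of 322 WT (14.9%, 11.2 to 19.3%, Clopper-Pearson) and 53 of 322 cKO Foxp3-positive cells (16.5%, 12.6 to 21.0%) held both. Il2rb was found in 41.7% of WT Foxp3-positive cells with an Il2ra UMI and 35.3% of those without, and in 44.9% and 37.75% in cKO. These intervals overlapped in each library, so the shares with both genes largely follow the share of each gene. All 3 chains were seen together in 5.28% and 4.97% of Foxp3-positive cells. In the agonist gate 3.69% and 3.13% and in the mature gate 4 and 7 of 94 cells held Il2ra and Il2rb, and in DN cells 0 of 2729 (up to 0.110% with 3 counts) and 1 of 2037 did. These are shares of cells with a UMI at this depth, and cells that express a gene can lack one.

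Jak3 (ENSMUSG00000031805), the kinase bound to the gamma chain, was sparsely counted and was highest in Foxp3-positive cells, at 20.7 CPM in WT (56 UMIs) and 17.4 CPM in cKO (41 UMIs). DN cells stood at 6.99 and 5.88 CPM, DP cells at 4.16 and 4.48 CPM and agonist cells at 12.7 and 9.87 CPM. The agonist and Foxp3-positive intervals overlapped in both libraries, and the DN and DP intervals lay below them. In the mature gate 14 WT and 6 cKO UMIs gave 12.1 and 5.47 CPM (ratio 0.451, 0.142 to 1.25), an interval that includes equality. Insl3 overlaps Jak3 on the same strand at its 3′ end in GENCODE vM21, so part of its reads may not have been counted.

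Stat5a (ENSMUSG00000004043) and Stat5b (ENSMUSG00000020919), which encode the transcription factors, differed less between gates than the receptor chains did. Stat5a stood between 49.4 (mature) and 98.1 CPM (Foxp3-positive) in WT and between 52.9 and 118 CPM in the same gates in cKO. Stat5b was highest in DP cells, at 110 and 118 CPM, with Foxp3-positive cells next at 101 and 103 CPM and overlapping intervals, and it was lowest in DN cells at 61.3 and 56.6 CPM, where the interval overlapped those of agonist and mature cells in WT and of mature cells in cKO. Between libraries the ratio of Stat5a lay from 0.964 (DN) to 1.201 (Foxp3-positive, 1.01 to 1.43) and that of Stat5b from 0.804 (mature) to 1.109 (agonist). The longest transcripts of this gene pair in GENCODE vM21 share 608 stretches of 50 bases, which is 15.8% of those in Stat5a and 11.8% of those in Stat5b, but 0 in the last 500 bases where 3′ reads are expected. Stat3 overlaps Stat5a on the opposite strand, and the sources used here do not say whether counting used strand.

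Cish (ENSMUSG00000032578), a direct STAT5 target that encodes the inhibitor CIS, was past 1.5-fold between the libraries in the DN gate. WT DN cells held 366 Cish UMIs in 307 of 2736 cells (9.31 CPM, 8.38 to 10.3), and cKO DN cells held 673 UMIs in 514 of 2037 cells (22.7 CPM, 21.0 to 24.5). The ratio was 2.44 (2.15 to 2.78), and no cell held more than 9 UMIs. Cish was 2.30 times as high in early DN cells with Kit or Cpa3 (1.87 to 2.84), 2.32 times in Ptcra-high DN cells (1.85 to 2.92), 2.73 times in dividing and 2.36 times in other DN cells. At 2000 UMIs per cell 2.71% of WT (2.13 to 3.39%) and 6.33% of cKO DN cells (5.31 to 7.48%) held a Cish UMI, against 1 of 47 and 0 of 28 cells with B cell markers. Those cells are too few to set a background under these shares, since 1 of 47 allows 0.0539 to 11.3%. Cish UMIs were found in 4.03% of WT DN cells with an Il2ra UMI and 1.49% of those without, and in 7.88% and 4.72% in cKO. In agonist cells these shares were 26.1% and 7.94% in WT and 21.7% and 12.3% in cKO. In Foxp3-positive cells they were 27.8% and 23.7% in WT and 26.3% and 21.6% in cKO, with overlapping intervals in each library. Both genes were higher in DN cells that were not dividing, as given below, and a link between them was not tested.

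The log2 fold of Cish in DN cells, computed with 5 CPM added to both sides, was 0.95. It was at least 0.77 in each of 12 alternatives, and each kept it past 1.5-fold. The DN gate admits no cell with a Cd4 UMI. In the same gate Il2ra (1.003), Il2rg (0.929), Stat5a (0.964), Stat5b (0.923), Socs1 (1.03) and Socs2 (0.945) had ratios near 1. Jak3 stood at 0.840 (0.691 to 1.02), Socs3 at 0.678 (0.606 to 0.758) and Il2rb at 1.23 from 14 and 13 UMIs. The antisense gene model Gm17041 overlaps Cish near its 3′ end, and reads from both cannot be told apart if counting ignored strand.

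Among the gates, Foxp3-positive cells held the highest level of Cish in both libraries, 132 CPM (118 to 146) in WT and 135 CPM (121 to 151) in cKO, a ratio of 1.03 (0.879 to 1.197). Agonist cells held 37.3 and 45.7 CPM and mature cells 36.4 and 33.7 CPM, with overlapping intervals between these gates. DP cells were lowest, with 9 UMIs in WT and 33 in cKO (1.14 and 3.36 CPM). Their ratio was 2.96 (1.39 to 7.04), as a ratio of CPM no smaller than that of DN cells. The log2 fold with 5 CPM added was 0.45, short of 1.5-fold, and it passed with 1 CPM added. Among DP cells at equal depth 5 of 1421 WT and 4 of 1808 cKO cells held a Cish UMI.

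Socs1 (ENSMUSG00000038037), an inhibitor of JAK kinases that restrains common gamma chain cytokine signals in thymocytes, was highest in DP cells, at 254 CPM (243 to 265) in WT and 275 CPM (264 to 285) in cKO, with 47.1% and 47.5% of cells holding a UMI at equal depth. Foxp3-positive cells stood at 117 and 130 CPM, DN cells at 100.1 and 103 CPM, mature cells at 83.2 and 66.6 CPM and agonist cells at 71.2 and 61.2 CPM. The mature and agonist intervals overlapped in both libraries, as did the mature and DN intervals in WT, while the DN and Foxp3-positive intervals did not. The ratio between libraries lay from 0.801 (mature) to 1.11 (Foxp3-positive).

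Socs3 (ENSMUSG00000053113), known as an inhibitor of receptors that use gp130, was highest in DN and Foxp3-positive cells in both libraries, with overlapping intervals, and in WT the mature interval overlapped both. WT DN cells held 936 UMIs (23.8 CPM, 22.3 to 25.4) and cKO DN cells 478 (16.1 CPM, 14.7 to 17.7), a ratio of 0.678 (0.606 to 0.758). This ratio lay below 1 in early DN cells (0.602), Ptcra-high DN cells (0.710), dividing (0.656) and other DN cells (0.697). The log2 fold was -0.45, under the 1.5-fold bound, and lay between -0.53 and -0.25 in 12 alternatives. In the DN gate Socs3 thus stood lower and Cish higher in the cKO library, and a link of either to the promoter matches was not tested. In the mature gate 18 and 6 UMIs gave 15.6 and 5.47 CPM.

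Socs2 (ENSMUSG00000020027), a STAT5-induced inhibitor of growth hormone receptor signalling, was highest in Foxp3-positive cells, at 37.4 CPM in WT (101 UMIs in 61 cells) and 25.5 CPM in cKO (60 UMIs in 34 cells), a ratio of 0.682 (0.487 to 0.949). DN cells stood at 10.7 and 10.2 CPM and mature cells at 14.7 and 21.9 CPM. In cKO the mature interval (14.0 to 32.6 CPM) overlapped that of Foxp3-positive cells (19.5 to 32.8 CPM). In DP cells Socs2 stood at 1.26 CPM from 10 UMIs in WT and 7.34 CPM from 72 UMIs in cKO. In agonist cells it stood at 9.27 CPM in WT (44 UMIs) and 2.52 CPM in cKO (11 UMIs). Both of these differences rested on a few cells with genes of antigen-presenting cells. Of the 72 UMIs in cKO DP cells, 29 came from 1 cell with 569 UMIs of Cst3 and 290 of Cd74, and the next 2 cells, with 15 and 8 Socs2 UMIs, held 273 and 209 Cd74 UMIs. Of the 44 UMIs in WT agonist cells, 29 came from 1 cell with 547 Cst3 and 275 Cd74 UMIs. Without the cells that held 10 or more Cd74 UMIs, 4 of the cKO DP and 2 of the WT agonist cells among them, the log2 fold was 0.17 in place of 0.98 in DP cells and -0.13 in place of -0.92 in agonist cells. That bound was set after these cells were seen. Over the gate, 6 myeloid markers summed to 162 and 221 CPM in DP cells and to 238 and 126 CPM in agonist cells, in WT and cKO, with Csf1r at 0 in all 4 sums. In the mature gate the same markers summed to 117 and 292 CPM, and 14 of the 24 cKO Socs2 UMIs came from 2 Cd74-rich cells. Without such cells the mature log2 fold was -0.46 in place of 0.45.

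**Figure D3:**
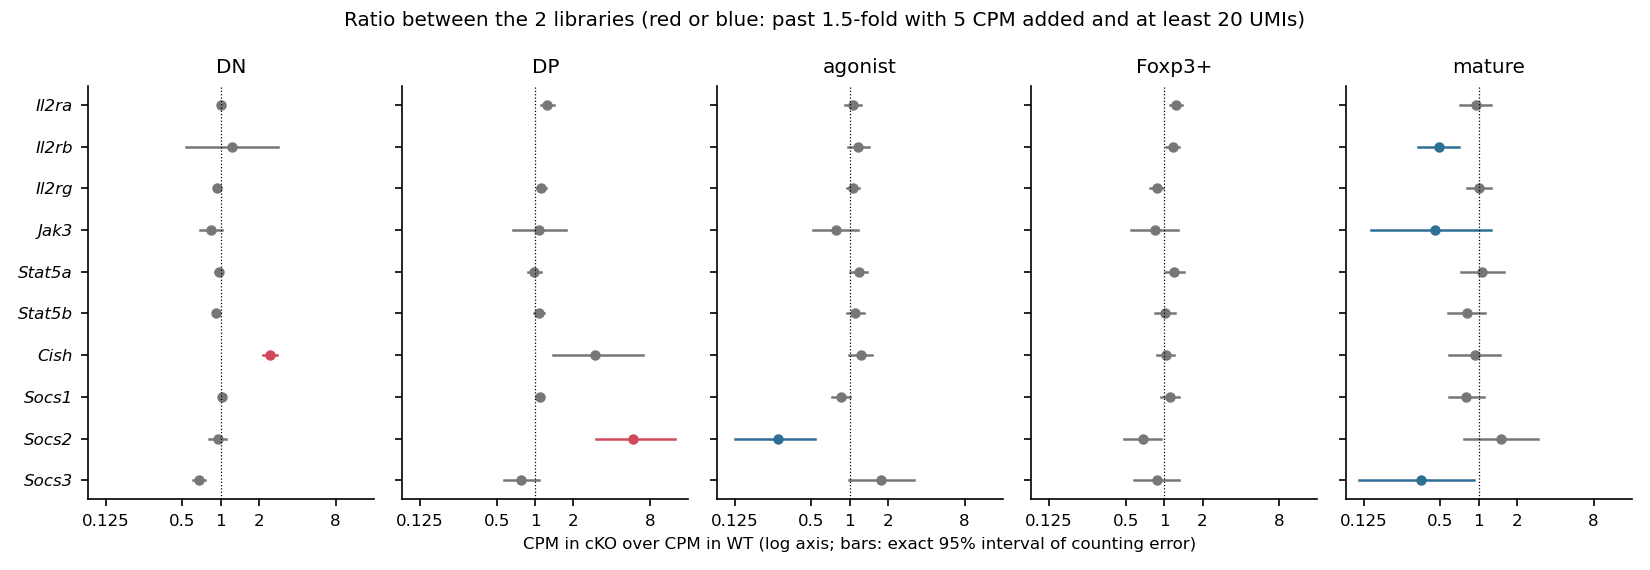
CPM in the cKO library over CPM in the WT library (x axes, log scale) for the 10 genes in each gate, with exact 95% intervals of counting error as bars. Genes past 1.5-fold with 5 CPM added and at least 20 UMIs are red (higher in cKO) or blue (lower), and Il2rb in DP cells is not drawn because WT held 0 UMIs.

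Across the 10 genes, 1 was past 1.5-fold in DN cells (Cish, higher), where 0.456% of 12290 genes with at least 20 UMIs were, 0.163% higher and 0.293% lower. In DP cells it was 1 of 9 (Socs2, higher), against 0.842% of genes, 0.64% higher and 0.201% lower. In agonist cells it was 1 (Socs2, lower) against 1.64%, 0.844% higher and 0.795% lower. Foxp3-positive cells had 0, against 6.11% of genes, 2.65% higher and 3.45% lower. In the mature gate 3 (Il2rb, Jak3 and Socs3, all lower) stood against 8.64%, 4.67% higher and 3.97% lower. The median log2 fold over the members with enough UMIs was -0.05 in DN, 0.11 in DP, 0.12 in agonist, 0.03 in Foxp3-positive and -0.19 in mature cells, beside medians over all genes from -0.03 to 0.01. Jak3 and Socs3 in the mature gate rested on 14 and 6 and on 18 and 6 UMIs. Without the cell with most of its UMIs in each library, each had fewer than 20 UMIs left, at log2 folds of -0.68 and -0.91.

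Between gates, Il2ra, Il2rb, Jak3, Cish and Socs2 were at least 2-fold higher in Foxp3-positive than in DP cells in both libraries, with 5 CPM added. Of all genes 6.74% in WT and 5.84% in cKO were. Socs1 was the 1 member at least 2-fold lower (log2 fold -1.08 in WT and -1.05 in cKO), where 7.58% and 7.82% of genes were. Cish was 116 times as high in Foxp3-positive as in DP cells in WT (60.4 to 256) and 40.2 times in cKO (28.1 to 59.4). TMM factors of Foxp3-positive against DP cells were -0.286 in WT and -0.277 in cKO on the log2 scale, which raises Foxp3-positive cells, and with them the count was 6 in both, adding Il2rg in WT and Socs3 in cKO. With cells thinned to 2000 UMIs the count was 5 in WT, with Socs3 in place of Jak3, and 4 in cKO, where Jak3 and Socs2 were no longer past 2-fold and Socs3 was. Against agonist cells, 5 members were at least 2-fold higher in each library, beside 5.01% and 4.26% of genes, and 0 lower, beside 4.04% and 3.97%. Il2ra, Il2rb, Cish and Socs2 were among them in both, joined by Socs3 in WT and Socs1 in cKO. Dividing cells gave 61.0% and 58.0% of agonist UMIs, against 30.4% and 20.4% of Foxp3-positive UMIs. In Foxp3-positive and agonist cells that were not dividing, Cish stood at 161 and 84.3 CPM in WT and 144 and 96.1 in cKO. Those pairs, WT Socs2 (44.1 and 22.7 CPM) and cKO Socs1 (142 and 83.0 CPM) were under 2-fold. Il2ra and Il2rb in both libraries, Socs3 in WT and Socs2 in cKO stayed past it. Against mature cells 4 members in WT and 6 in cKO were higher, beside 4.48% and 4.87% of genes, and 0 were lower, beside 3.37% and 5.13%. Dividing cells gave 61.2% and 65.8% of the mature UMIs. In Foxp3-positive and mature cells that were not dividing, Il2rb stood at 262.5 and 183 CPM in WT, under 2-fold. In cKO it stood at 286 and 104 CPM, past 2-fold.

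Agonist cells had 3 members at least 2-fold above DP cells in WT (Il2rb, Cish and Socs2) and 2 in cKO (Il2rb and Cish), beside 3.33% and 3.65% of genes. Whether this gate holds regulatory T cell precursors was not tested. Socs1 was lower in both, beside 7.14% and 8.17%. DN cells had 3 members above DP cells in WT (Il2ra, Cish and Socs2) and 2 in cKO (Il2ra and Cish), beside 2.58% and 2.64%. Socs1 was lower in both libraries and Stat5b in cKO, beside 4.62% and 6.47% of genes. The Socs2 calls against DP cells in WT rest on 10 DP UMIs, and the 29 UMIs of 1 agonist cell are part of the agonist value. In cKO, 52 of the 72 Socs2 UMIs of DP cells came from 4 Cd74-rich cells. They raise the DP level that DN cells were set against, and this comparison was not repeated without them.

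Most of the members were lower per total UMIs in dividing cells. Dividing cells, with at least 2 UMIs of Mki67 and Top2a together, supplied 54.6% and 55.5% of the UMIs of the DN gate and 30.4% and 20.4% of those of the Foxp3-positive gate, in WT and cKO. Il2ra stood at 509 CPM in WT DN cells that were not dividing and at 233 CPM in dividing ones, and at 486 and 258 CPM in cKO. Cish stood at 15.0 and 4.61 CPM in WT and at 35.4 and 12.6 CPM in cKO in the same cells. In the DN gate 5 of 9 members with enough UMIs (Il2ra, Il2rg, Cish, Socs1 and Socs3) were at least 1.5-fold higher in CPM in cells that were not dividing, in each library, beside 12.3% and 11.4% of genes. In the Foxp3-positive gate it was 8 in WT and 6 in cKO, beside 15.6% and 23.2%. Cells called dividing held more UMIs, with medians of 23044 against 8804 in WT DN cells, so a share of the total is not a number per cell. The bound of 2 UMIs was set on counts without thinning, so deeper cells pass it more easily. Part of this depth gap may come from the bound itself. In Foxp3-positive cells, Cish was 2.49 times as high in cells that were not dividing in WT and 1.44 times in cKO.

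**Figure D4:**
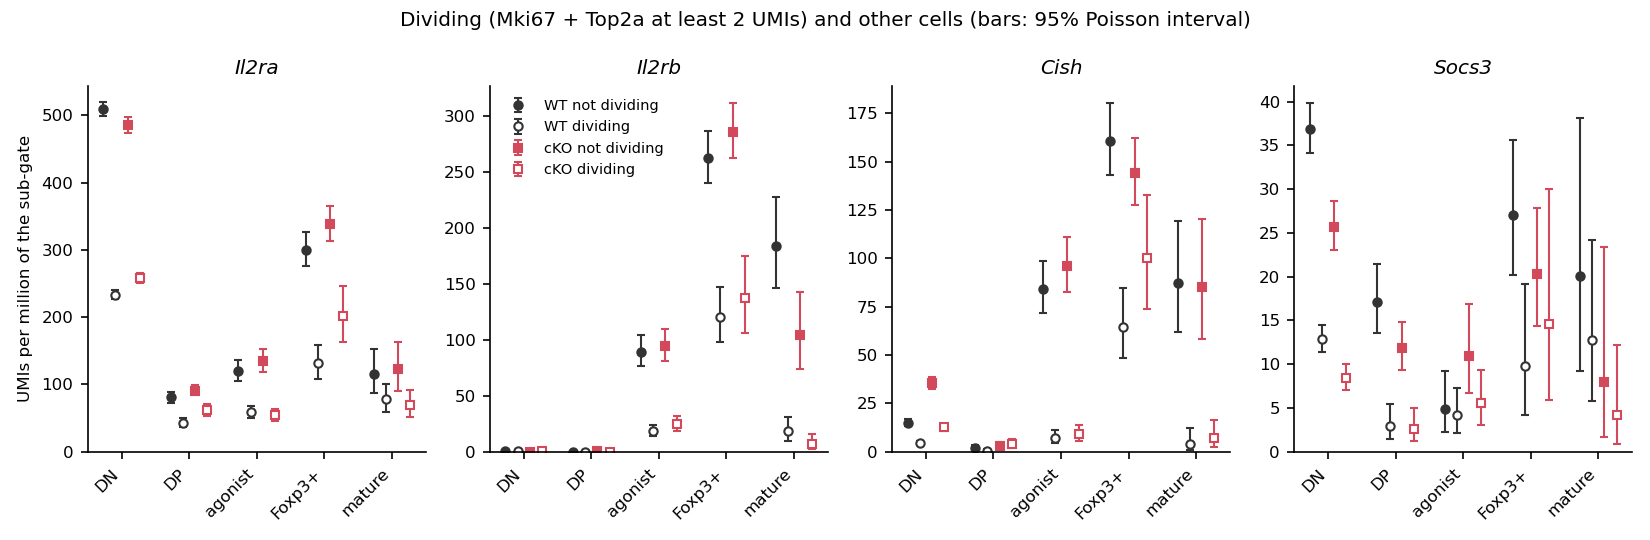
Il2ra, Il2rb, Cish and Socs3 (y axes, CPM of the sub-gate) in dividing cells (open symbols) and other cells (filled symbols) of each gate, WT as circles and cKO as squares, with exact 95% Poisson intervals. In DN cells Cish is higher in cKO both in dividing cells (4.61 and 12.6 CPM) and in the others (15.0 and 35.4 CPM).

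Foxp3-positive cells were also split by the egress genes S1pr1 and Klf2. Cells with at least 2 UMIs of these, 268 in WT and 301 in cKO, held 256 and 318 CPM of Il2ra, 234 and 282 CPM of Il2rb and 125 and 151 CPM of Cish. Cells with none numbered 36 in WT and 16 in cKO. The splitting genes themselves were higher in the cKO library over the whole gate, Klf2 at 1040 and 1585 CPM (ratio 1.52) and S1pr1 at 119.9 and 171 CPM (1.425), so the subsets are not like for like in WT and cKO. In the cells with no S1pr1 or Klf2 UMI, Cish stood at 161 CPM (51 UMIs) in WT and 31.3 CPM (6 UMIs) in cKO. The ratio was 0.195 (0.0684 to 0.454). In the same cells Il2rb stood at 173 and 78.3 CPM (55 and 15 UMIs) and Il2rg at 271 and 157 CPM. Il2ra, at 271 and 303 CPM, did not share that direction. With 16 cells these values are weakly founded, and the difference between these subsets was not tested.

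A list of 50 other pathway genes, all found in the files, holds cytokines of the family, other receptor chains, JAKs, STATs, SOCS proteins, phosphatases, kinase adaptors and known STAT5 targets. In Foxp3-positive cells 40 had at least 20 UMIs, and 2 were past 1.5-fold, both lower in cKO, a share near the 6.11% of all genes in that gate. Icos, a costimulatory receptor of activated and regulatory T cells, was counted with 349 UMIs in WT and 119 in cKO (129 and 50.6 CPM, ratio 0.392, 0.315 to 0.484), and Prdm1, which encodes the repressor BLIMP1, at 8.14 and 2.13 CPM from 22 and 5 UMIs. In agonist cells 0 of 39 were past it, beside 1.64% of all genes. Bcl2, an inhibitor of apoptosis, was past it in DN cells at 149 and 234 CPM (ratio 1.57, 1.52 to 1.63) and in DP cells at 34.2 and 54.0 CPM, higher in cKO. These 2 Bcl2 values, like those of Il7r (49.4 and 100.3 CPM, higher in cKO) and Tnfrsf1b (28.6 and 17.3 CPM, lower) in the mature gate, were named after their values were seen. Il2 itself gave 64 and 46 UMIs in DN cells and 9 and 4 in Foxp3-positive cells.

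Over the 10 points given by 5 gates in 2 libraries, the genes whose log2 level was most like that of Il2ra were Zyx (Pearson r 0.966), Rnf135 (0.951) and Fam169b (0.940), among 9701 genes. For Il2rb they were Ttc28, Bcl3 and Izumo1r (0.994 to 0.995), and for Cish they were Rpl34, Lfng and Slc36a3os (0.983 to 0.987). The points share libraries and depth, and with 10 of them many genes reach such values, so these are a description.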

How the data were processed

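Matrices of raw UMI counts per gene and barcode were deposited for 1 WT and 1 cKO library of thymocytes enriched for CD25. The submitters' processing notes name CASAVA 1.8, Cell Ranger 6.1.1 and Seurat 4.0.3, and the kit is the 3′ version 3.1 per the labels. The sources used here name no genome build for the counts. The matrices held 7852 and 8461 barcodes.

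Cells needed 500 genes, 1000 UMIs and no more than 10% of UMIs from mitochondrial genes. Scrublet in scanpy 1.11.5, with an expected rate of 0.06, removed 148 WT and 129 cKO doublets at the WT threshold of 0.29. The automatic cKO threshold of 0.638 called 1 cell, and the WT one was taken after that was seen. Each cell entered the first gate it met, in the order B, Foxp3-positive, innate, agonist, mature, DP and DN. Counts were summed per gate and scaled to CPM. For folds, 5 CPM was added to both libraries before the log2 ratio of cKO to WT was taken, and a gene is past the bound at 1.5-fold with at least 20 UMIs over both libraries. Between gates the bound is 2-fold. Sums carry exact Poisson, shares Clopper-Pearson and ratios exact binomial 95% intervals, which cover counting error only. A count of 0 was set against 3 counts. For equal depth, cells were thinned to 2000 UMIs and shallower cells were left out. Folds and intervals were tested on simulated data.

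Named were the 10 members, genes of the 50-gene list past 1.5-fold in the Foxp3-positive or agonist gate, the 3 most alike genes per member (printed for 3 members) and Setdb1. The members and lists were chosen with earlier results of these data known. Of the other marker lists, B cell markers summed to 10.0 to 43.5 CPM over the 5 gates, epithelial ones to 18.2 to 85.3 CPM with Krt5 at 0 outside WT mature cells, erythroid ones to at most 0.229 CPM and myeloid ones to 117 to 292 CPM. TMM factors came from edgeR 4.0.16.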

Additional observations from a re-analysis of the deposited data

Results flagged for a closer look

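Socs2 was past 1.5-fold in opposite directions in the DP gate (log2 fold of cKO over WT 0.98, from 10 and 72 UMIs) and in the agonist gate (-0.92, from 44 and 11 UMIs). The difference between the gates was not tested. Without cells holding 10 or more Cd74 UMIs the folds were 0.17 and -0.13.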

How the results depend on the processing

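Each of 50 member and gate folds was recomputed under 12 alternatives, 600 in all. Of these, 513 kept their call and lay within the counting interval, 86 moved, 20 of them in the mature gate. Of the 6 folds past 1.5-fold, 1 changed sign: Socs2 in DP cells was -0.15 with cells thinned to 2000 UMIs. Of the other 44, 17 changed sign under at least 1 alternative, such as Socs2 in mature cells (0.45, down to -1.06) and Socs1 in agonist cells (-0.20, up to 0.44). Leaving out each member's top cell, cells with 10 or more Cd74 UMIs, or dividing cells was chosen after seeing the data. In DP cells the count of members past 1.5-fold, 1, was 0 when thinned, as a mean of per-cell CPM and without Cd74-rich cells, and 2 with 1 CPM added. In agonist cells it was 1, and 0 under those same 3 settings and without top cells, but 2 with 1 CPM added, with stricter gates and without dividing cells. In Foxp3-positive cells it was 0, and 2 as a mean of per-cell CPM and 1 with the stricter cell filter, thinned, with stricter gates, without Mki67 or Top2a UMIs and without dividing cells, each time Socs2 or Socs3 and lower. In mature cells it was 3, and 0 thinned and 1 (Il2rb) without Mki67 or Top2a UMIs, without top cells and with 50 UMIs required. It was 4 with stricter gates (Il2ra, Il2rb, Stat5b and Socs1, lower), 2 without dividing cells (Il2rb lower, Socs2 higher), and 3 with the stricter cell filter, where Socs2, higher, replaced Jak3. The cause of these changes was not tested.

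The share of cells with an Il2ra UMI followed depth, in WT and cKO. Without thinning it was 86.7% and 87.5% in DN, 13.5% and 11.6% in DP, 38.1% and 42.3% in agonist, 60.7% and 60.4% in Foxp3-positive and 33.7% and 38.5% in mature cells. Thinned to 3000 UMIs it was 60.4% and 60.8% in DN, 13.5% and 16% in DP, 45.2% and 43.9% in Foxp3-positive cells and 23.5% in cKO agonist cells. DN shares were 40.2% and 42.1% with the stricter cell filter, 51.2% and 54.2% with stricter gates, 54.3% and 56.8% without Mki67 or Top2a UMIs, and 50.9% in WT with the looser filter. With doublets kept, cKO DP cells stood at 10.4%. No paired analysis was possible because there was 1 library per genotype.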
